A study of Sus scrofa with 18 samples.

Results

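The genes described here encode enzymes that metabolise drugs, steroids and aldehydes: cytochromes P450 (CYP), UDP-glycosyltransferases (UGT), glutathione transferases (GST), sulfotransferases (SULT), aldehyde dehydrogenases (ALDH), aldo-keto reductases (AKR), flavin-containing monooxygenases (FMO) and carboxylesterases (CES). The rule selects on symbols in the array's annotation and uses no measured value, though it was set with earlier results of these data known. CYP26A1, which degrades retinoic acid, was left out. The rule found 48 genes among the 12361 genes named on the array. They were read by 59 probe sets, a probe set being the group of array probes that gives 1 value per array, and a gene with several was represented by the one with the highest mean over all arrays. No CES gene had a probe set of its own.

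RNA was hybridised to arrays from LLC-PK1 cells, an established epithelial line from the kidney of a male Hampshire pig, grown past confluence and treated with all-trans retinoic acid (ATRA), a vitamin A derivative that acts through nuclear receptors. The 6 groups were cells at 0, 0.5, 1, 4, 8 and 12 h of ATRA, each with 3 arrays that the labels call biological replicates, 18 arrays in all. The labels used here do not state the dose. All later times were compared with the same 0 h arrays, and no untreated array of a later time was part of the study, so treatment and time in culture cannot be told apart. The whole culture was extracted, and fewer cells of a type and less RNA per cell cannot be told apart either.

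Cells clear foreign and internally made chemicals in stages. P450 and FMO enzymes first insert oxygen into the molecule, ALDH and AKR enzymes convert aldehydes and ketones, and UGT, GST and SULT enzymes attach a sugar, glutathione or sulfate, so that carriers can export the product. The proximal tubule of the kidney holds many of these enzymes, and several P450s instead make or remove sterols, bile acids and vitamin D hormones.

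Values were log2 signals, so that 1 unit is a doubling. Signals of different probe sets cannot be ranked against each other, and a signal was called dim where its mean lay under the lowest array median of 5.59. Of the 48 genes 24 were dim, and 12 of those lay under the lowest lower quartile of 3.73. All 8 measured proximal tubule markers, LRP2 and CUBN among them, lay above every array median, as did all 5 epithelial markers. The endothelial markers PECAM1, VWF, KDR and TEK were all dim, and the leukocyte marker PTPRC and the hepatocyte marker ALB lay under the lower quartile. CD3E, APOA1 and the fibroblast collagens COL1A1, COL1A2 and COL3A1 were above the median. The other measured fibroblast markers, PDGFRB, DCN and LUM, were dim, and so were CD14, SERPINA1 and FGB, the remaining leukocyte and hepatocyte markers. Of 4 thick limb and distal tubule markers SLC12A1 (7.59) lay above every median, and UMOD, CALB1 and KCNJ1 were dim. Of 4 collecting duct markers AQP3 (7.29) and SCNN1A (6.54) lay above every median, and AQP2 and SCNN1G were dim. Replicate 1 deviated most from its group mean over all probe sets at every time but 12 h, with a root mean square deviation of up to 0.305 at 8 h.

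Markers moved with time too. The summed log2 signal of the 8 proximal tubule markers ran from 75.05 to 77.7 at 0 h, 73.0 to 73.5 at 4 h, 72.0 to 72.8 at 8 h and 72.1 to 73.9 at 12 h. LRP2, SLC34A1 and SLC5A2 fell at 4 h, while HNF4A rose at 8 h (lost in 5 of 6 fits without 1 array, all but the one without 8 h replicate 1) and 12 h. The thick limb marker SLC12A1 fell at 12 h (limma adjusted p = 0.00164). The 6 fibroblast markers summed to 32.7 to 33.2 at 0 h, 33.7 to 34.3 at 0.5 h, 33.6 to 34.4 at 1 h and 33.4 to 35.1 at 4 h, when COL1A1 rose. The 5 epithelial markers summed to 50.6 to 52.1, 52.2 to 52.9, 52.0 to 53.6 and 52.8 to 54.8 at the same times. Of these KRT8 and KRT19 rose at 4 h and 12 h, and KRT19 also at 8 h. Both sums thus lay higher at 0.5 h already, when no enzyme gene was called. The part of these shifts in the results was not tested.

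Calls on the enzyme genes began at 4 h. A gene was called changed at an adjusted p under 0.05 from limma's moderated test, with Benjamini-Hochberg adjustment over all 27558 probe sets. At 0.5 h 0 of the 48 were called, against 0.227% of all named genes, and at 1 h 0, against 0.882%. At an unadjusted p under 0.05 limma gave 0 and 2 of them, and every other setting tried also called 0 at both times. At 4 h 7 were called, 14.6% against 16.4%. Of these 3 rose (7.89% of all genes did) and 4 fell (8.53%). At 8 h 7 were again called against 7.9%, 2 higher (4.33%) and 5 lower (3.58%). At 12 h 2 were called against 3.27%, 1 higher (1.52%) and 1 lower (1.75%). The median log2 difference of the 48 was -0.08 at 4 h and -0.06 at 8 h, beside 0.01 and -0.01 over all genes.

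These counts moved with single arrays. The share of all genes called was not counted in the fits without 1 array, so such moves cannot be told apart from a general one. At 4 h the count was 12 without 4 h replicate 1, and 4 without 0 h replicate 2, 0 h replicate 3 or 4 h replicate 3. At 8 h it was 4 without 0 h replicate 2 or 8 h replicate 3, and at 12 h 1 without 0 h replicate 2. Same-numbered arrays deviated together at 4 h, and a fit blocked on the number of the replicate called there, 3 higher and 8 lower, against 23.7% of all genes.

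**Figure D1:**
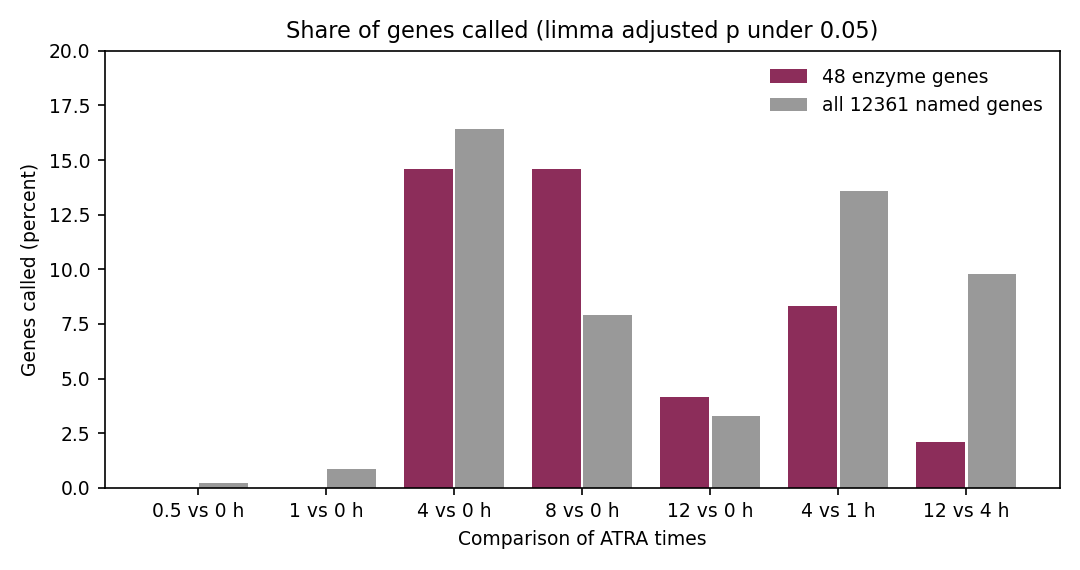
Percent of the 48 enzyme genes (purple) and of all 12361 named genes (grey) called in each comparison of ATRA times, by limma's test at an adjusted p under 0.05. At 4 h the shares were 14.6% and 16.4%, and at 8 h 14.6% and 7.9%; no enzyme gene was called at 0.5 h or 1 h.

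The F test over all 5 differences called 8 of the 48, 16.7% against 19.2%. They were FMO5, ALDH1L2, ALDH3B1, GSTO1, AKR1C1, CYP7A1, CYP39A1 and CYP24A1, the genes also called against 0 h at some time. CYP51 was called only between 4 h and 12 h. The other 39 were called in none of the 7 comparisons, and 21 of them were dim. From 1 h to 4 h 4 members were called, against 13.6%. FMO5 and AKR1C1 fell, beside 6.22% of all genes, and ALDH1L2 and GSTO1 rose, beside 7.39%. Under the replicate block this count was 11 against 20.1%, and it was 9 without 4 h replicate 1, 2 without 4 h replicate 2, and 1 without 1 h replicate 3 or without 4 h replicate 3.

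**Figure D2:**
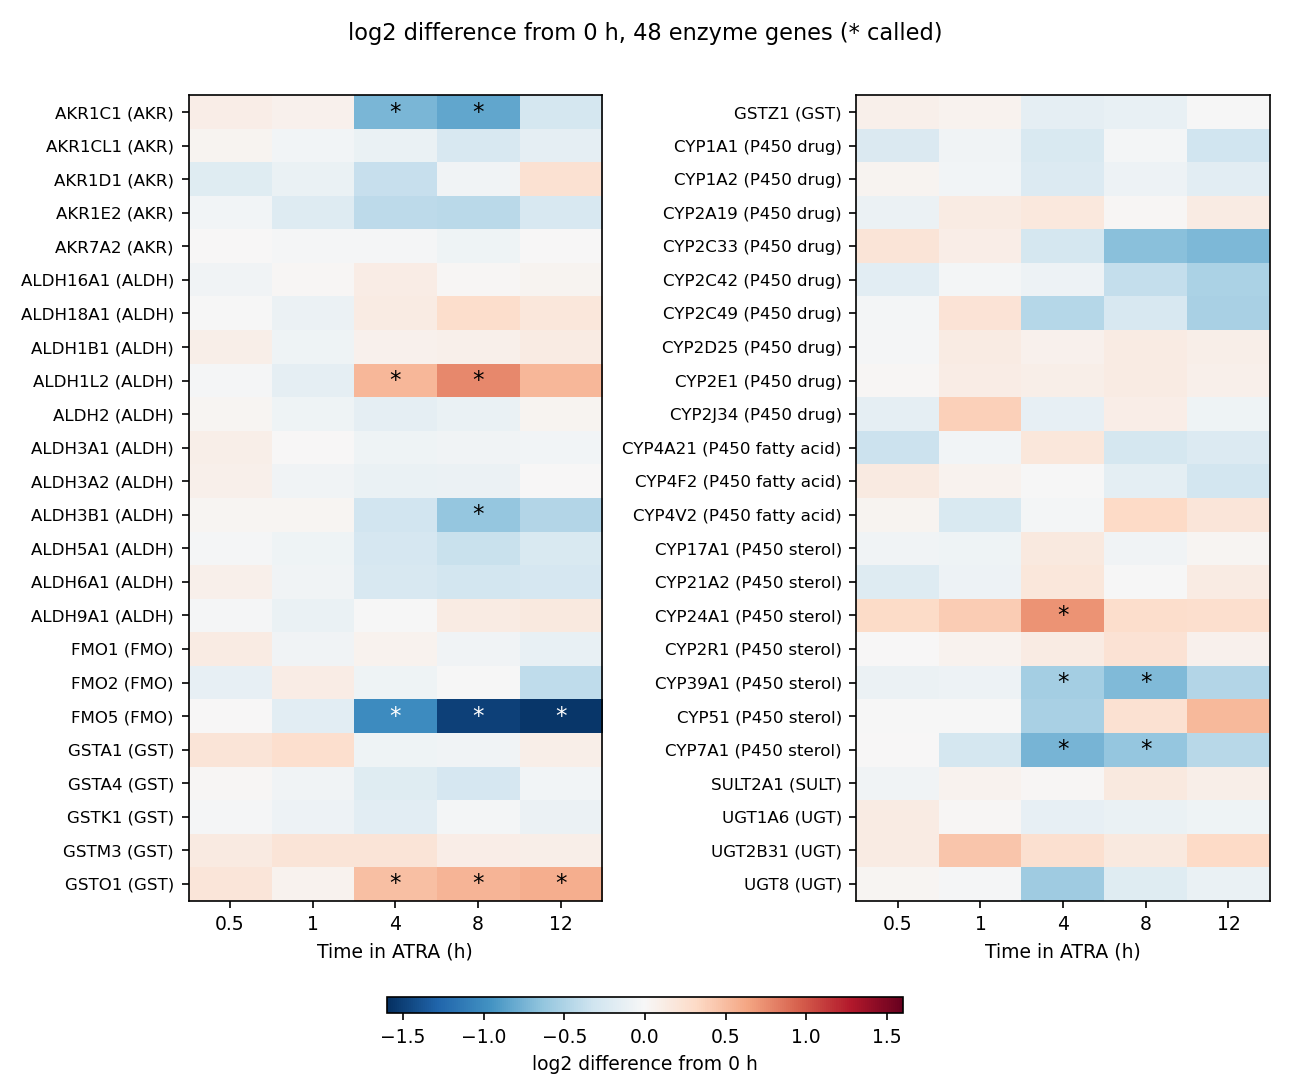
Log2 difference from 0 h of each of the 48 enzyme genes (rows) at 0.5, 1, 4, 8 and 12 h of ATRA (columns), blue lower and red higher, with an asterisk where limma's adjusted p was under 0.05. FMO5 was the darkest row, at -1.003, -1.49 and -1.56 from 4 h on, and the columns at 0.5 h and 1 h hold no asterisk.

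FMO5, a flavin monooxygenase that oxidises ketones (probe set 15281158), showed the largest fall of the 48 genes at 4, 8 and 12 h. Its log2 signals were 6.93, 7.22 and 7.51 at 0 h. They were 6.97, 7.12 and 7.60 at 0.5 h and 6.93, 6.81 and 7.42 at 1 h. In the first hour the arrays overlapped those of 0 h. At 4 h they were 6.53, 6.07 and 6.06, at 8 h 5.93, 5.59 and 5.67, and at 12 h 5.57, 5.57 and 5.83. All 9 arrays from 4 h on lay below all 9 earlier ones. FMO5 fell 2.00-fold at 4 h (log2 difference -1.003 ± 0.20 SE, n = 3 arrays a time, limma adjusted p = 0.00363), 2.81-fold at 8 h (-1.49 ± 0.20, 0.000819) and 2.95-fold at 12 h (-1.56 ± 0.20, 0.000742).

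The 95% interval of the 12 h difference ran from -1.99 to -1.13. FMO5 kept these 3 calls in each fit without 1 array and without replicate 1 at every time. Between 1 h and 4 h it fell by 0.83 (limma adjusted p = 0.014), a call lost without 1 h replicate 3, 4 h replicate 2 or 4 h replicate 3 (up to 0.0786). Between 4 h and 12 h the difference of -0.56 was not called (limma adjusted p = 0.114), though the arrays of the 2 times did not overlap.

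FMO1 and FMO2, which oxidise nitrogen and sulfur atoms of drugs and lie side by side in the RefSeq annotation, were dim, with means of 2.74 and 3.01. FMO2 read 3.26, 3.00 and 3.03 at 0 h and 2.76, 2.79 and 2.52 at 12 h. Those arrays did not overlap, but the difference of -0.41 was not called (limma adjusted p = 0.121). FMO1 differed by 0.05 at 4 h and -0.12 at 12 h.

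**Figure D3:**
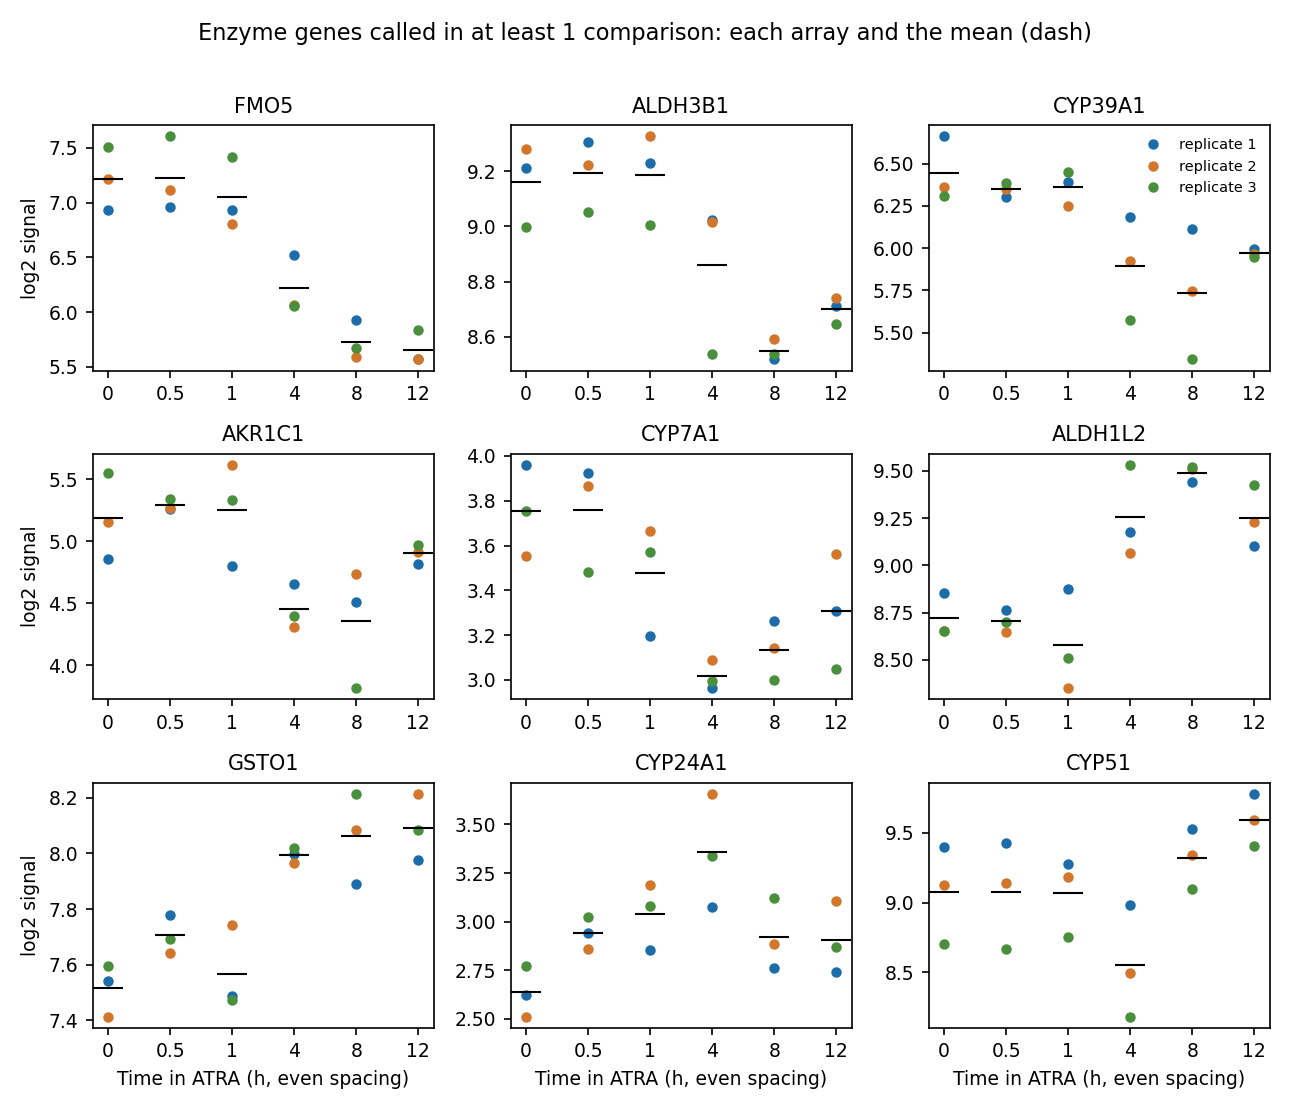
Log2 signal of the 9 enzyme genes called in at least 1 comparison, by time in ATRA (h, evenly spaced), with 1 point per array coloured by replicate and a dash at each mean. FMO5 and ALDH3B1 lie lower and ALDH1L2 and GSTO1 higher from 4 h or 8 h on, while CYP24A1 is highest and CYP51 lowest at 4 h.

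Of 11 ALDH genes, ALDH1L2 rose and ALDH3B1 fell, and the F test called 18.2% of the 11 beside 19.2% of all genes. ALDH1L2, a mitochondrial formyltetrahydrofolate dehydrogenase of folate metabolism (probe set 15294669), read 8.85, 8.65 and 8.65 at 0 h. It read 8.76, 8.65 and 8.70 at 0.5 h and 8.87, 8.35 and 8.51 at 1 h. At 4 h the arrays gave 9.17, 9.06 and 9.53, at 8 h 9.44, 9.51 and 9.52, and at 12 h 9.10, 9.23 and 9.42. Every array from 4 h on lay above every earlier one, and the 8 h arrays lay closest together.

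ALDH1L2 rose 1.70-fold at 8 h (0.77 ± 0.14, limma adjusted p = 0.0043), and each fit without 1 array kept that call. The 4 h rise of 0.54 ± 0.14 (limma adjusted p = 0.0175) was lost without 0 h replicate 2, 0 h replicate 3 or 4 h replicate 3 (up to 0.106). At 12 h the difference of 0.53 missed the threshold (limma adjusted p = 0.0565). From 1 h to 4 h the gene rose by 0.68 (limma adjusted p = 0.00481), and no fit without 1 array lost this.

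ALDH3B1, which oxidises fatty aldehydes from lipid breakdown (probe set 15253720), read 9.21, 9.28 and 8.997 at 0 h and 8.52, 8.59 and 8.54 at 8 h. The 8 h arrays all lay below the 0 h arrays and close to each other. ALDH3B1 fell 1.53-fold at 8 h (-0.61 ± 0.13, limma adjusted p = 0.0109), a call lost without 0 h replicate 2 (0.063) and without replicate 1 at every time (0.0818). At 4 h it read 9.03, 9.02 and 8.54, so that replicate 3 alone had reached the 8 h level. That difference of -0.30 was not called (limma adjusted p = 0.161), but was with the replicate block (0.0337). At 12 h the arrays read 8.71, 8.74 and 8.64, and the difference of -0.46 was not called (limma adjusted p = 0.0751).

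The other 9 ALDH genes were not called. ALDH9A1, which serves carnitine synthesis, read 10.61, 10.53 and 10.53 at 0 h and 10.64, 10.72 and 10.81 at 12 h (0.16, limma adjusted p = 0.441). Its 12 h interval ran from -0.02 to 0.35. ALDH2, the mitochondrial enzyme that clears acetaldehyde, differed by -0.14 at 4 h (interval -0.32 to 0.04), and its other probe set by -0.14. ALDH18A1, which makes a precursor of proline, read 10.15, 10.20 and 10.32 at 0 h and 10.33, 10.48 and 10.67 at 8 h. These arrays did not overlap, yet the difference of 0.28 was not called (limma adjusted p = 0.187). ALDH5A1, which clears succinic semialdehyde, differed by -0.36 at 8 h (limma adjusted p = 0.0598), and this was called without 8 h replicate 1 (0.0155). ALDH3A1, inducible through the aryl hydrocarbon receptor in other cells, was dim and differed by -0.07 at 4 h and -0.05 at 8 h and 12 h. The retinaldehyde dehydrogenases ALDH1A1, ALDH1A2 and ALDH1A3, which form retinoic acid, and ALDH1L1 were not analysed here.

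Among 6 GST genes GSTO1 rose and no other was called, 16.7% by the F test beside 19.2% of all genes. GSTO1, an omega class transferase that reduces dehydroascorbate and arsenic compounds (probe set 15228350), read 7.54, 7.41 and 7.60 at 0 h. It read 7.78, 7.64 and 7.69 at 0.5 h and 7.49, 7.74 and 7.47 at 1 h. At 4 h it read 8.00, 7.97 and 8.02, at 8 h 7.89, 8.08 and 8.21, and at 12 h 7.98, 8.22 and 8.09. The 9 arrays from 4 h on lay above all 9 earlier ones. GSTO1 rose 1.39-fold at 4 h (0.48 ± 0.10, limma adjusted p = 0.00614), 1.46-fold at 8 h (0.55 ± 0.10, 0.00587) and 1.49-fold at 12 h (0.58 ± 0.10, 0.00797).

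The 4 h and 8 h calls on GSTO1 held in each fit without 1 array, and the 12 h call was lost without 0 h replicate 2 (limma adjusted p = 0.0581). From 1 h to 4 h it rose by 0.43 (limma adjusted p = 0.0149), lost without 1 h replicate 1, 1 h replicate 3 or 4 h replicate 3 (up to 0.0697). A second probe set named GSTO1 held the same values on every array and adds nothing.

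GSTA4, which conjugates aldehydes from lipid peroxidation, read 9.65, 9.76 and 9.67 at 0 h and 9.36, 9.47 and 9.46 at 8 h. The arrays did not overlap, and the difference of -0.26 was not called (limma adjusted p = 0.0694). At 12 h GSTA4 was back at 9.64, 9.66 and 9.66. GSTA1, the main alpha class transferase, differed by -0.07 at 4 h (interval -0.43 to 0.28). GSTK1, GSTM3 and GSTZ1 were not called either, and GSTP1 was not analysed here.

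Of 5 AKR genes AKR1C1 alone was called, 20% by the F test beside 19.2% of all genes. AKR1C1 reduces steroid ketones (probe set 15201391, dim with a mean of 4.91), and it read 4.86, 5.15 and 5.55 at 0 h. At 4 h it read 4.65, 4.31 and 4.396, at 8 h 4.51, 4.74 and 3.82, and at 12 h 4.82, 4.92 and 4.97. The 4 h and 8 h arrays lay below the 0 h arrays, and the 12 h arrays overlapped them. AKR1C1 fell by 0.73 ± 0.23 at 4 h (limma adjusted p = 0.0466) and by 0.83 ± 0.23 at 8 h (0.0429).

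Both AKR1C1 calls were near the threshold. The 4 h call was lost without 0 h replicate 2, 0 h replicate 3, 4 h replicate 2 or 4 h replicate 3 (limma adjusted p up to 0.197). The 8 h call was lost without 0 h replicate 2, 0 h replicate 3, 8 h replicate 1 or 8 h replicate 3 (up to 0.182). The fall of 0.80 from 1 h to 4 h (limma adjusted p = 0.0359) was lost without 1 h replicate 2, 1 h replicate 3, 4 h replicate 2 or 4 h replicate 3 (up to 0.162). Another 2 probe sets named AKR1C1, identical to each other and linked to another gene record, were not called at 4 h (-0.34, 0.163) or 8 h (-0.27, 0.371). Genes of the AKR1C subfamily are close copies, so their probes may share targets.

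AKR1CL1, next to AKR1C1 in the RefSeq annotation, read 8.81, 9.04 and 9.31 at 0 h and 8.69, 8.80 and 8.89 at 8 h, and the difference of -0.26 was not called (limma adjusted p = 0.338). AKR1E2 differed by -0.42 at 4 h (limma adjusted p = 0.0887), which the replicate block called (0.0254). AKR1D1, a steroid reductase of bile acid synthesis, differed by -0.37 at 4 h (limma adjusted p = 0.298), and without 4 h replicate 1 by -0.68, which was called (0.00461). AKR7A2, an aldehyde reductase, was not called, and AKR1B1 was not analysed here.

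Of 7 P450 genes of sterols, steroids, bile acids and vitamin D, CYP7A1 and CYP39A1 fell and CYP24A1 rose at 4 h, when 8.53% of all genes were called lower and 7.89% higher. CYP7A1, the rate-limiting enzyme of bile acid synthesis in liver (probe set 15279159), was dim, with a mean of 3.41 that lay under the lowest lower quartile of 3.73. It read 3.96, 3.55 and 3.76 at 0 h, 2.96, 3.09 and 3.00 at 4 h, 3.26, 3.14 and 3.00 at 8 h and 3.31, 3.56 and 3.05 at 12 h. The 4 h and 8 h arrays lay below the 0 h arrays, and at 12 h replicate 2 was again within their range. CYP7A1 fell by 0.74 ± 0.16 at 4 h (limma adjusted p = 0.00576), a call that each fit without 1 array kept, but the probe set was not shown to be above background. The 8 h fall of 0.62 (limma adjusted p = 0.0313) was lost without 0 h replicate 1, 0 h replicate 3, 8 h replicate 2 or 8 h replicate 3 (up to 0.127).

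CYP39A1, which hydroxylates an oxysterol on the way to bile acids (probe set 15310214), read 6.66, 6.36 and 6.31 at 0 h. It read 6.19, 5.92 and 5.58 at 4 h, 6.11, 5.74 and 5.34 at 8 h and 5.995, 5.97 and 5.95 at 12 h. The arrays from 4 h on all lay below those at 0 h, and replicate 3 was lowest at 4 h and 8 h. CYP39A1 fell by 0.55 ± 0.17 at 4 h (limma adjusted p = 0.0466) and by 0.71 ± 0.17, or 1.64-fold, at 8 h (0.0219), and the 12 h difference of -0.47 was not called (0.187).

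The 4 h call on CYP39A1 was lost in 5 of 6 fits without 1 array, all but the one without 4 h replicate 1 (limma adjusted p up to 0.231). It was also lost when arrays were centred on their medians (0.0535). The 8 h call was lost without 0 h replicate 1, 0 h replicate 2, 8 h replicate 2 or 8 h replicate 3 (up to 0.103).

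CYP24A1, which inactivates the vitamin D hormone in kidney (probe set 15249930), was dim. Its mean of 2.97 lay under the lowest lower quartile of 3.73. It read 2.62, 2.51 and 2.77 at 0 h, 2.94, 2.86 and 3.03 at 0.5 h and 2.85, 3.19 and 3.08 at 1 h. At 4 h it read 3.08, 3.66 and 3.34, at 8 h 2.76, 2.88 and 3.12, and at 12 h 2.74, 3.11 and 2.87. The arrays of the first 4 h lay above those of 0 h, and at 8 h and 12 h replicate 1 was back within the 0 h range. CYP24A1 rose by 0.72 ± 0.15 at 4 h (limma adjusted p = 0.00413), in each fit without 1 array too, though it was not shown to be above background. It differed by 0.29 at 8 h (0.333) and 0.27 at 12 h (0.455). CYP17A1, CYP21A2 and CYP2R1 were not called, and the vitamin D and sterol enzymes CYP27A1 and CYP27B1 were not analysed here.

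CYP51, the lanosterol demethylase of cholesterol synthesis, also named CYP51A1 (probe set 15331264), was low at 4 h and high at 12 h. It read 9.39, 9.13 and 8.70 at 0 h, 8.98, 8.49 and 8.18 at 4 h, 9.52, 9.34 and 9.10 at 8 h and 9.78, 9.59 and 9.41 at 12 h. At each time replicate 1 was highest and replicate 3 lowest, and every 12 h array lay above every 4 h array. From 4 h to 12 h CYP51 rose 2.06-fold (1.04 ± 0.24, limma adjusted p = 0.0125). It was the 1 member called in that comparison, against 9.77% of all genes. Of all genes 4.65% were called higher and 5.12% lower.

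The CYP51 call was lost without 4 h replicate 2, 4 h replicate 3 or 12 h replicate 1 (up to 0.0787), and without 4 h replicate 1 the members called were 4. Against 0 h the differences of -0.52 at 4 h (limma adjusted p = 0.183) and 0.52 at 12 h (0.329) were not called. Blocked on replicate, CYP51 was called lower at 4 h against 0 h (0.00151) and against 1 h (0.00192).

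Cholesterol synthesis was also read by 11 other measured genes on a fixed list. None was called against 0 h at any time by limma, with 2, 2 and 3 at an unadjusted p under 0.05 at 4, 8 and 12 h, and their median differences were -0.24 at 4 h and 0.41 at 12 h. Under the block 3 were called lower at 4 h, against 23.7% of all genes called. They were MSMO1, a methylsterol oxidase acting after CYP51 (limma adjusted p = 0.00347), SC5D, a sterol desaturase (0.00579), and SQLE, which makes squalene epoxide (0.0348).

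From 4 h to 12 h the same 3 rose, SC5D by 1.04 ± 0.26 (limma adjusted p = 0.0214), SQLE by 0.91 ± 0.22 (0.0186) and MSMO1 by 0.90 ± 0.21 (0.0148). Against the 4.65% of all genes called higher, 3 of 11 were. The list did not move as 1. In the mean 2 of the 11, HSD17B7 and NSDHL, lay higher than 0 h at 4 h. At 12 h 10 lay higher, and TM7SF2 lay lower (-0.36, limma adjusted p = 0.286). MSMO1 read 10.36, 10.16 and 9.77 at 0 h, 10.01, 9.49 and 9.40 at 4 h and 10.62, 10.62 and 10.36 at 12 h, in the same replicate order as CYP51 at 0 h and 4 h. All 3 calls were lost without 4 h replicate 2, 4 h replicate 3, 12 h replicate 1 or 12 h replicate 2 (limma adjusted p up to 0.0843 for MSMO1, 0.109 for SC5D and 0.0987 for SQLE).

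**Figure D4:**
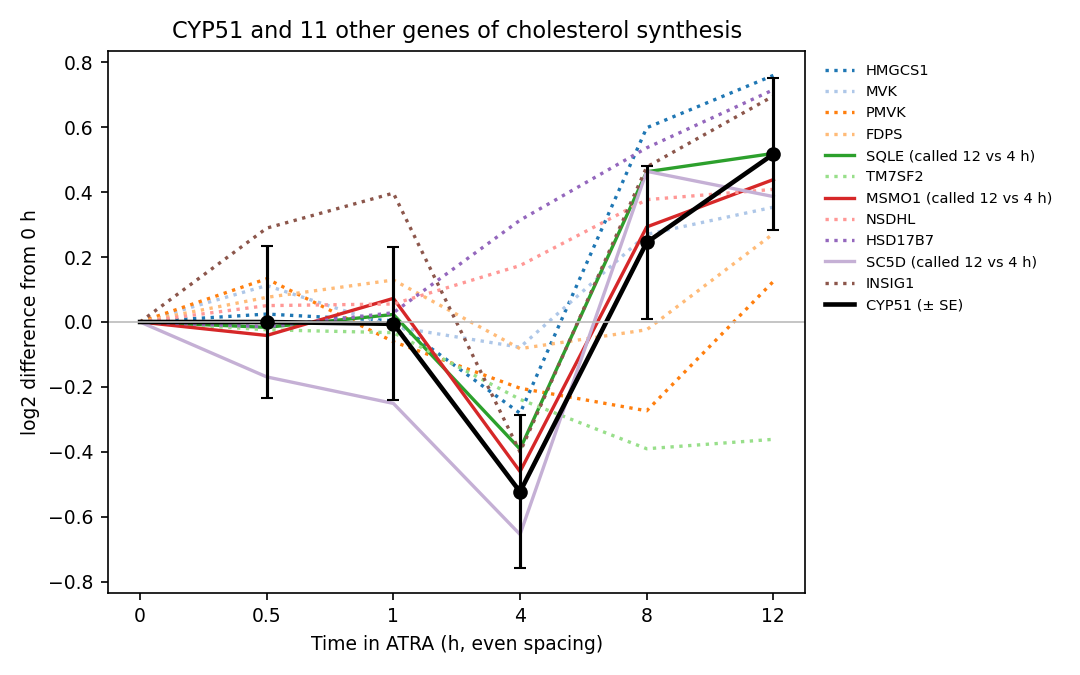
Mean log2 difference from 0 h of CYP51 (black, with the SE of each difference) and of 11 other genes of cholesterol synthesis, by time in ATRA (h, evenly spaced). Solid coloured lines mark SC5D, SQLE and MSMO1, called between 4 h and 12 h; like CYP51 at -0.52 and 0.52, they lie below 0 at 4 h and above it at 12 h.

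The 9 P450s of drug metabolism held no call in any of the 7 comparisons, beside 16.4% of all genes called at 4 h and 7.9% at 8 h. Of all dim genes 3.82% were called at 4 h and 1.62% at 8 h. The 9 genes, most of them dim, are too few to set apart from these shares. At an unadjusted p under 0.05 limma gave 0 of the 9 at 4 h and 8 h and 2 at 12 h. CYP2C33, of a family that oxidises many drugs, had a mean of 9.88, and of the others CYP2C49 alone was not dim, at 5.68. It read 9.55, 10.26 and 10.51 at 0 h, 9.28, 9.95 and 10.24 at 4 h, 8.94, 9.55 and 9.82 at 8 h and 9.04, 9.30 and 9.82 at 12 h.

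The arrays of these times overlapped, because the replicates of CYP2C33 lay about as far apart as the times did. Within each replicate number the signal was lower than at 0 h in 3 of 3 pairs at 4 h (-0.27, -0.32 and -0.27), 8 h (-0.61, -0.72 and -0.68) and 12 h (-0.51, -0.97 and -0.69). The differences of -0.29 at 4 h (limma adjusted p = 0.702), -0.67 ± 0.34 at 8 h (0.322) and -0.72 ± 0.34 at 12 h (0.357) were not called. The block called the 4 h difference (limma adjusted p = 0.0452). It also called those at 8 h (0.000595) and 12 h (0.000759), where not all 3 same-numbered pairs deviated together at a correlation over 0.1.

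CYP1A1 and CYP1A2, neighbours in the RefSeq annotation and induced through the aryl hydrocarbon receptor in many cells, were dim. CYP1A1 read 5.14, 5.07 and 5.57 at 0 h and 6.37, 4.22 and 4.46 at 4 h, so that 4 h replicate 1 stood apart above the rest and the other two below. Its 4 h difference of -0.24 had an interval from -1.06 to 0.57, and without 4 h replicate 1 it was -0.92 and called (limma adjusted p = 0.00371). CYP1A2 differed by -0.22 at 4 h (interval -0.79 to 0.36). CYP2C49, another gene of the CYP2C family, differed by -0.46 at 4 h (limma adjusted p = 0.226). From 1 h to 4 h its difference was called with the replicate block (0.0148). CYP2A19, CYP2C42, CYP2D25, CYP2E1 and CYP2J34 were not called, and CYP1B1, CYP3A22, CYP3A29 and CYP3A39 were not analysed here, nor were the retinoic acid hydroxylases CYP26B1 and CYP26C1.

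**Figure D5:**
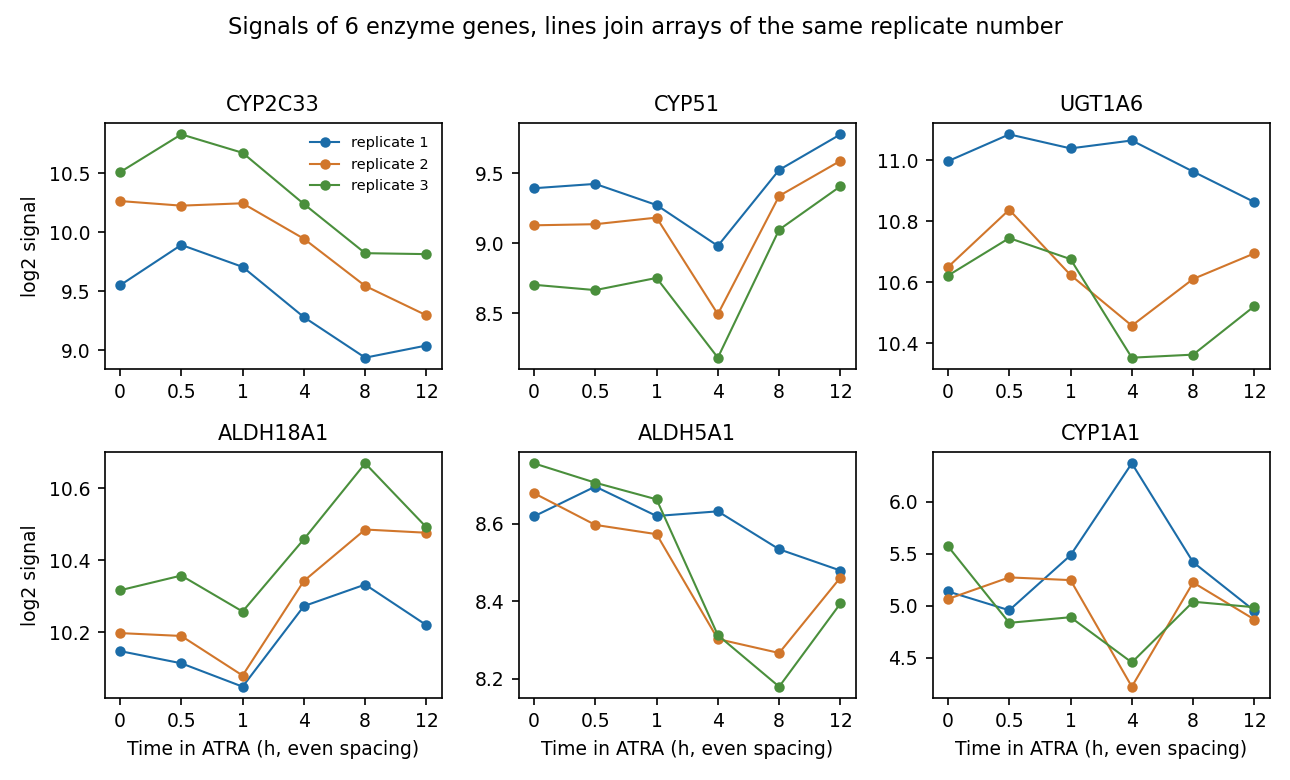
Log2 signal of CYP2C33, CYP51, UGT1A6, ALDH18A1, ALDH5A1 and CYP1A1 by time in ATRA (h, evenly spaced), each line joining the arrays of 1 replicate number. For CYP2C33 the lines run side by side about as far apart as they move. For CYP51 they keep their order, replicate 1 highest and replicate 3 lowest at each time. For CYP1A1 the replicate 1 array at 4 h (6.37) stands above those of replicates 2 and 3 (4.22 and 4.46).

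The P450s of fatty acids, CYP4A21, CYP4F2 and CYP4V2, were all dim, and none was called or had an unadjusted p under 0.05 in limma at any time against 0 h. CYP4V2, which hydroxylates fatty acids, differed by 0.32 at 8 h (interval -0.14 to 0.77), with 8 h replicate 1 at 5.71 and the others at 4.95 and 4.64. Of the 3 UGT genes none was called. Neither group of 3 can be told apart from all genes (19.2% called by the F test) or all dim genes (3.66%). UGT1A6, which attaches glucuronic acid to phenols, read 10.997, 10.65 and 10.62 at 0 h, 11.06, 10.46 and 10.35 at 4 h and 10.86, 10.70 and 10.52 at 12 h. Its difference was -0.13 at 4 h (interval -0.55 to 0.28). UGT8, which makes galactosylceramide, differed by -0.57 at 4 h (limma adjusted p = 0.238), with 4 h replicate 1 at 5.35 and the others at 4.34 and 4.17, and without that array it was called (0.0165). SULT2A1, which sulfates steroids and bile acids, was dim, and differed by 0.01 at 4 h (interval -0.28 to 0.31).

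The regulators of these enzymes were read by a list of 14 measured genes, of which 3 fell and 0 rose at 4 h, beside 8.53% and 7.89% of all genes. Their median difference was -0.04, against 0.01 over all genes. NR1H4, the bile acid receptor that represses CYP7A1 in liver, read 7.70, 7.47 and 7.27 at 0 h and 6.96, 5.87 and 6.05 at 4 h. All 3 arrays at 4 h lay below those of 0 h, and NR1H4 fell 2.28-fold (-1.19 ± 0.24, limma adjusted p = 0.00417). ARNT, the partner of the aryl hydrocarbon receptor, fell by 0.64 ± 0.12 (limma adjusted p = 0.00161). Both 4 h calls held in each fit without 1 array. At 12 h NR1H4 read 7.19, 7.06 and 6.82, and its rise from 4 h was not called (limma adjusted p = 0.0847). ARNT rose by 0.41 from 4 h to 12 h (limma adjusted p = 0.042, lost in 5 of 6 fits without 1 array). PPARA, a receptor that raises fatty acid oxidation, fell by 0.39 at 4 h (limma adjusted p = 0.0242, lost in 5 of 6 fits without 1 array, all but the one without 4 h replicate 1), 0.55 at 8 h (0.0073) and 0.56 at 12 h (0.0123, lost without 12 h replicate 1 or 12 h replicate 2).

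HNF4A, which drives many liver and tubule enzymes, rose by 1.09 ± 0.17 at 12 h (limma adjusted p = 0.00306, in each fit without 1 array too). At 1 h MAFF, a small MAF factor that pairs with NRF2, rose. It read 4.52, 4.43 and 4.70 at 0 h and 5.77, 7.37 and 7.29 at 1 h, all above 0 h. The rise was 4.78-fold (2.26 ± 0.39, limma adjusted p = 0.00728), and was lost without 1 h replicate 2 or 1 h replicate 3 (up to 0.0594). HNF4A and MAFF were chosen after their values were seen. NR1I2, a receptor for drugs, was dim and not called, and AHR was not analysed here.

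Of 15 genes of glutathione turnover and of the donors used in conjugation, 1 was called higher and 2 lower at 4 h, beside 7.89% and 8.53% of all genes. Their median difference was -0.15. GCLM, a subunit of the enzyme that starts glutathione synthesis, read 10.63, 10.72 and 10.69 at 0 h, 9.78, 9.55 and 9.46 at 4 h and 10.59, 10.48 and 10.48 at 12 h. It fell 2.12-fold at 4 h (-1.09 ± 0.13, limma adjusted p = 6.53e-05). CHAC1, which breaks glutathione down, rose 2.23-fold (1.16 ± 0.21, limma adjusted p = 0.00179). Both 4 h calls held in each fit without 1 array. CHAC1 read 4.71, 4.68 and 4.67 at 0 h and 4.72, 4.69 and 4.52 at 12 h. Its fall of 1.20 from 4 h to 12 h was called (limma adjusted p = 0.00289). UGP2, which makes UDP-glucose, fell by 0.31 (limma adjusted p = 0.0251), lost without 0 h replicate 1, 0 h replicate 3, 4 h replicate 2 or 4 h replicate 3 (up to 0.128). Under the block the list held 2 higher and 3 lower, against 23.7% of all genes called.

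Of 10 targets of the stress factor NRF2, 2 rose and 2 fell at 4 h, GCLM among them, against 16.4% of all genes called, and their median difference was 0.13. TXNRD1, a thioredoxin reductase, rose by 0.57 ± 0.09 (limma adjusted p = 0.000798). TALDO1, a transaldolase, rose by 0.34 (limma adjusted p = 0.0373), which was lost without any 1 of the 6 arrays. SQSTM1, an autophagy receptor, fell by 0.71 ± 0.15 (limma adjusted p = 0.00593). With the replicate block 3 were higher and 3 lower, against 23.7%.

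Of 16 other enzymes of drug metabolism 2 fell at 8 h, beside 3.58% of all genes, and their median difference was -0.12. EPHX1, the microsomal epoxide hydrolase, fell by 0.52 ± 0.11 (limma adjusted p = 0.00949), lost without 0 h replicate 2 (0.0513). DPYD, which degrades pyrimidines, fell by 0.79 ± 0.18 (limma adjusted p = 0.0142), lost without 0 h replicate 1, 8 h replicate 2 or 8 h replicate 3 (up to 0.0702). Of 11 carriers 1 was called higher at 4 h, beside 7.89% of all genes. This was ABCC2, an apical export pump, which rose by 0.53 (limma adjusted p = 0.0292, lost in 5 of 6 fits without 1 array, all but the one without 4 h replicate 1). Under the replicate block 4 carriers were higher and 2 lower at 4 h, against 23.7% of all genes called. Of 8 electron partners of P450s and haem enzymes 2 rose from 4 h to 12 h, beside 4.65% of all genes. CYB5B, a cytochrome b5, rose by 0.31 (limma adjusted p = 0.0273) and BLVRA, a biliverdin reductase, by 0.47 (0.0125), lost in 5 and in 4 of 6 fits without 1 array, those without 4 h replicate 2 or 4 h replicate 3 among them.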

How the data were processed

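The authors deposited log2 signals, 1 per probe set and array. They came from Transcriptome Analysis Console 2.0.0.9, per the submitters' processing notes, and how probes were summarized and arrays normalized is not stated there. Array medians ran from 5.59 to 5.67 and values from 0.882 to 13.86. With 3 arrays a time limiting precision, the median SE of a log2 difference was 0.149 over all probe sets and 0.158 over the 48 genes.

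Of 27558 probe sets 13323 carried 1 symbol, 357 several and 13878 none; 7 symbols, none of an enzyme gene, were updated through RefSeq. Values were tested as deposited, with no filter, in limma 3.58.1 (R 4.3.3): 1 mean per time, 12 residual and 3.34 prior degrees of freedom, 7 comparisons, two-sided, Benjamini-Hochberg over all probe sets. In simulated data for 4 h against 0 h over 27558 probe sets, 25 of 67 shifts of 0.5, 56 of 67 of 1 and 66 of 66 of 2 were called, and 6 of 27358 unchanged. The simulated noise was normal and independent between arrays, and far fewer probe sets were shifted than the 3568 called at 4 h. These rates thus need not hold for the real arrays.

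The replicate number was tried as a block. In the pairing check, deviations of same-numbered arrays correlated at over 0.1 in 18 of 21 pairs (-0.05 to 0.45), with all 3 pairs over it for 0.5, 1 and 4 h against 0 h and for 1 h to 4 h; the pairing is read from the data there, not from the labels. Other alternatives were a trended prior, fits on the compared times alone, a filter on low values, quantile normalization, median centring, another choice of probe set, leaving out each array, and, chosen after seeing the data, leaving out replicate 1 at every time and testing identical probe sets once.

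Genes are named if called, if highest in mean signal of their role group (a way of choosing, not a comparison of levels), or if on a fixed list of inducible, hormone-linked or retinoid enzymes; of the companion lists up to 4 called members at the time with the most calls. The member genes and lists were chosen with earlier results of these data known.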

Additional observations from a re-analysis of the deposited data

Results flagged for a closer look

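The effect of time in ATRA on CYP51 differed between 2 time points, by a test of the difference itself. The log2 difference from 0 h was -0.52 at 4 h and 0.52 at 12 h, 1.04 apart (SE 0.24, limma adjusted p = 0.0125). The 0 h arrays cancel in that comparison, which sets the 3 arrays at 12 h against the 3 at 4 h. The call was lost without 4 h replicate 2, 4 h replicate 3 or 12 h replicate 1.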

How the results depend on the processing

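Of 21 calls on single enzyme genes, none changed direction under any setting tried. With the replicate block the counts of enzyme genes called were 11 at 4 h, 12 at 8 h, 6 at 12 h, 11 from 1 h to 4 h, 3 from 4 h to 12 h and 16 by the F test, against 7, 7, 2, 4, 1 and 8 without it. The block added calls and lost none, and also raised the share of all genes called, to 23.7% at 4 h, 14.4% at 8 h, 8.85% at 12 h, 20.1% from 1 h to 4 h and 16.8% from 4 h to 12 h. Not all 3 correlations of same-numbered arrays passed 0.1 at 8 h, 12 h or from 4 h to 12 h. For replicates 1, 2 and 3 they were 0.375, 0.0952 and 0.212 at 8 h against 0 h. At 12 h against 0 h they were 0.172, 0.0505 and 0.148, and from 4 h to 12 h 0.166, -0.0474 and 0.181. Of all arrays 17 of 18 correlated best with their own number, a hint from the data. Whether arrays of 1 number belong together at these times was not tested. CYP2C33 was called in the block at 8 h (limma adjusted p = 0.000595) and 12 h (0.000759). Fitted on the compared times alone, the counts were 3 at 4 h, 2 at 8 h, 0 from 1 h to 4 h and 0 from 4 h to 12 h, with fewer samples behind the spread; the calls that held were FMO5 at 4, 8 and 12 h, GSTO1 at 4 h and 12 h, CYP7A1 at 4 h and ALDH1L2 at 8 h. At 12 h the count was 4 with a trended prior and 4 with the filter on low values, which left 24 genes tested. Without replicate 1 at every time it was 14 at 4 h, 8 from 1 h to 4 h and 4 from 4 h to 12 h, beside 23%, 19.3% and 16.5% of all genes. Leaving out 1 array gave 4 to 12 calls at 4 h, 4 to 7 at 8 h, 1 to 2 at 12 h, 1 to 9 from 1 h to 4 h, 0 to 4 from 4 h to 12 h and 6 to 12 by the F test. The share of all genes was not counted in these fits, nor with the compared times alone, the trended prior or the filter. It was not counted for the F test under the block either. Those counts thus cannot be read as particular to the enzyme genes. AKR1C1 at 8 h was lost under quantile normalization (limma adjusted p = 0.0612) and median centring (0.0591). Median centring lost 3 calls in all, that on CYP39A1 at 4 h among them. Neither scaling moved the median of all probe sets by 0.1. Where no cause is named above, the cause was not tested. Dim probe sets limit 24 of the 48 genes.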

Other observations

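The carboxylesterase CES1, which hydrolyses ester drugs, shared its only probe set with an unnamed locus and was therefore no member. That probe set (15296292) was dim, with a mean of 3.67. It read 3.88, 3.64 and 3.81 at 0 h and 3.50, 3.30 and 3.44 at 12 h, so that the arrays did not overlap, and the difference of -0.36 was not called (limma adjusted p = 0.161).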
